A study of Mus musculus with 6 samples.

Results

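The genes described here are the transcription factor Nfe2l2 (NRF2), its inhibitor Keap1 and 8 antioxidant genes linked to NRF2: Osgin1, Hmox1, Nqo1, Gclc, Gclm, Txnrd1, Srxn1 and Slc7a11. They are 10 of the 19241 genes listed in a bulk RNA-seq table of brown fat, taken as the total interscapular depot from newborn mice, and all 10 were found by symbol. The table holds 6 libraries. The 3 called WT have the genotype Fstl1-floxed, and the 3 called KO have the genotype Myf5-Fstl1 KO, in which Fstl1, the gene of a secreted glycoprotein, is lost in the Myf5 lineage that gives rise to muscle and much of this brown fat. All 6 are labelled newborn, and no strain, Cre allele or sex was given in the labels used here. The 10 genes were chosen by pathway name with the KO and WT values of these libraries already known. The differences between KO and WT in these genes are therefore given as a description, without a test.

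NRF2 is held at a low level in unstressed cells because KEAP1 presents it to the CUL3 ubiquitin ligase. Oxidants and electrophiles modify cysteines of KEAP1, NRF2 then accumulates, pairs with a small Maf protein and binds antioxidant response elements near its target genes. The targets make glutathione, regenerate thioredoxin and peroxiredoxin, and break down haem and quinones. Much of this control acts on NRF2 protein, which RNA levels do not show. Brown fat burns fatty acids in dense mitochondria and is a site of steady oxidant production.

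The depot was checked as a mixed tissue before the 10 genes were read. Fstl1 lay at 54.4 to 130.04 FPKM (a fragment count corrected for transcript length and for library size) in WT and at 7.93 to 13.1 FPKM in KO. Of 10 brown adipocyte markers, 4 (Ucp1, Elovl3, Plin1 and Prdm16) lay below WT in all KO libraries, against 11.4% of the 13331 genes tested, those at a mean of 0.5 FPKM or more. Elovl3 and Plin1 passed an adjusted p of 0.05 in limma, where 1.01% of tested genes were called lower. Ucp1, which uncouples respiration to make heat, was at 4366 to 6255 FPKM in WT and 1695 to 3592 FPKM in KO, or 48.9% of the WT mean. The other 6 markers overlapped, and the sum over the 10, most of it Fabp4 (14000 to 17389 FPKM), was 21060 to 26520 FPKM in WT and 20180 to 22070 FPKM in KO. The part of the brown adipocyte state in the values below was not tested. Endothelial sums were 463.1 to 605.1 and 471.2 to 523.6 FPKM, and epidermal sums at most 2.19 FPKM. Summed over 10 skeletal muscle markers, KO replicate 1 held 290.6 FPKM and the other 5 libraries 1195 to 1735 FPKM. Summed over 9 erythroid markers, WT replicate 3 held 14400 FPKM and the others 3076 to 5072 FPKM. Ddx3y, on the Y chromosome, lay at 59.5 to 60.8 FPKM in KO and at most 0.23 FPKM in WT, while Xist lay at 44.8 to 85.5 FPKM in WT and at most 0.92 FPKM in KO. Sex as read from these transcripts coincided with genotype, and the effects of sex and of the deletion cannot be told apart in any difference below.

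Sequences near the start sites were read from a RefSeq table of GRCm38.p6, the assembly that mm10 names, which held 10 promoter windows for 8 of the 10 genes (not Hmox1 or Gclc). Each window runs from 250 bases before to 50 bases after an annotated start. The core of the antioxidant response element, TGACNNNGC, was searched on both strands. It was found in 4 of the 10 windows, those of Nfe2l2, Gclm, Srxn1 and 1 of 3 starts of Txnrd1, against 12.4% of all 32851 windows. The stretches are shown 5′ to 3′ on the strand of the gene, with the 9 matching bases in capitals. In Gclm, Txnrd1 and Srxn1 the match lies on the opposite strand, so the capitals show its reverse complement. Positions count from the start site. The match lies at −240 to −232 in Nfe2l2 (chr2:75704870-75704913, minus strand), at −134 to −126 in Gclm (chr3:122245398-122245456, plus strand), at −92 to −84 in Txnrd1 (chr10:82859089-82859147, plus strand) and at 29 to 37, inside the transcript, in Srxn1 (chr2:152105542-152105570, plus strand).
Nfe2l2: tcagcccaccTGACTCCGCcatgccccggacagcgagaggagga
Gclm: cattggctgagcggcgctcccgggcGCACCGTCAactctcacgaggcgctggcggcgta
Txnrd1: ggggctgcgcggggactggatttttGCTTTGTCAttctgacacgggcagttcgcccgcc
Srxn1: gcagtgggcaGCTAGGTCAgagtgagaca

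The Osgin1 window did not hold that core, but it held a related form that NRF2 shares with Maf factors. This form, TGACTCAGC or TGAGTCAGC on either strand, was searched after the Osgin1 window had been read. It contains the letters of an AP-1 site, and its first spelling is also a match to the core above. It occurred in 2 of the 10 windows, those of Osgin1 and Srxn1, and in 0.822% of all windows. Because the form was searched with the Osgin1 sequence known, nothing is read from these shares. In both windows the form found is the second spelling, TGAGTCAGC, which does not match the core. In Osgin1 it lies at −99 to −91 on the opposite strand (chr8:119437023-119437081, plus strand), and in Srxn1 at −45 to −37 on the strand of the gene (chr2:152105469-152105497, plus strand). The 1 window held for Osgin1 belongs to a start inside the annotated span of the gene (119425882 to 119446257). The sequence at the outer 5′ end of that span was not searched. The matches are letters in a window and were not tested as binding sites.
Osgin1: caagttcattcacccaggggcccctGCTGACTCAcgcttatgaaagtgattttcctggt
Srxn1: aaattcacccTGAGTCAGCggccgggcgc

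In WT libraries the genes spanned a wide range of levels. Hmox1 (69.3 ± 12.0 FPKM, SD, n = 3) and Nfe2l2 (57.8 ± 9.44) headed the order, followed by Txnrd1 (44.3 ± 10.06), Gclm (28.8 ± 3.72), Gclc (21.04 ± 7.77), Keap1 (17.1 ± 0.964) and Srxn1 (12.6 ± 0.664). Osgin1 (2.98 ± 0.196), Slc7a11 (0.657 ± 0.458) and Nqo1 (0.633 ± 0.157) came last. Neighbours whose WT values overlapped were Hmox1 and Nfe2l2, Nfe2l2 and Txnrd1, Gclm and Gclc, Gclc and Keap1, and Slc7a11 and Nqo1. In KO the order of the upper 7 was the same, and Osgin1 (0.563 ± 0.102 FPKM) stood among Nqo1 (0.743 ± 0.249) and Slc7a11 (0.517 ± 0.133), whose KO values overlapped its own.

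**Figure D1:**
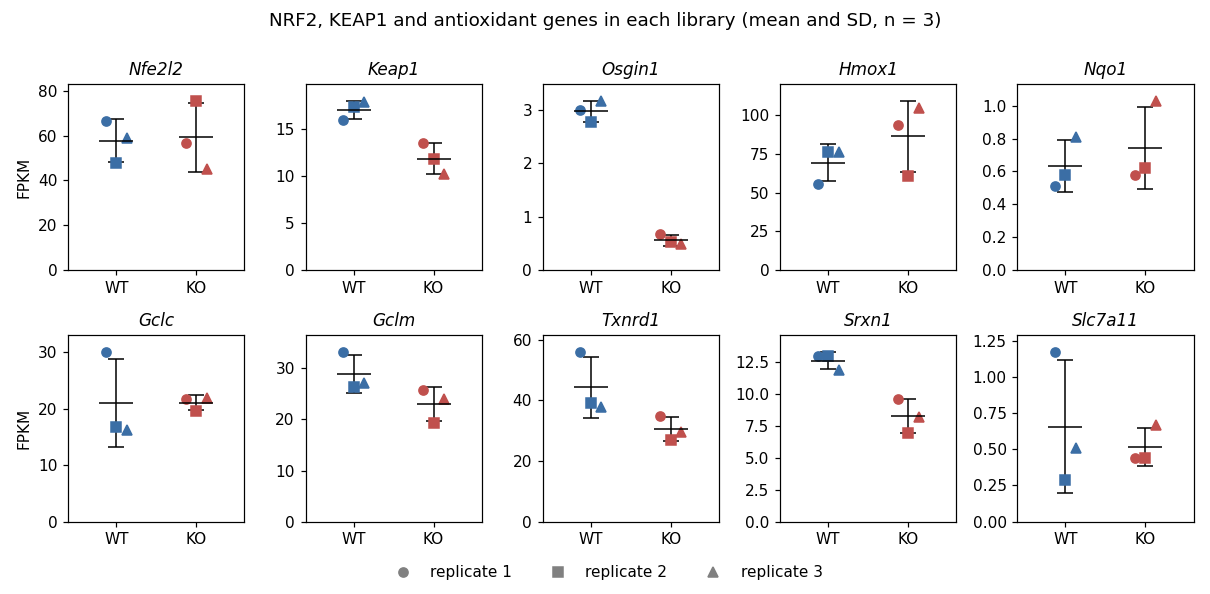
FPKM of each of the 10 genes in the 3 WT (blue) and 3 KO (red) libraries, on axes that start at 0; symbols mark the replicate number, the long bar is the mean and the whiskers the SD. Relative to its own level, Osgin1 shows the widest gap between the groups, at 2.77 to 3.16 FPKM in WT and 0.49 to 0.68 FPKM in KO. Nfe2l2, Hmox1, Nqo1, Gclc and Slc7a11 overlap.

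Across the 10 genes, KO lay below WT without overlap in 5 (Keap1, Osgin1, Gclm, Txnrd1 and Srxn1) and above it in 0, and the groups overlapped in the other 5. Over all 13331 genes tested, 11.4% lay below without overlap and 13.6% above. The median difference of the 10 on the log2(FPKM + 1) scale was −0.21, against 0.01 over all tested genes. Since the choice of the genes used this comparison, nothing is read from these shares.

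Of the regulators, Keap1 lay lower in all KO libraries, and the Nfe2l2 values of the groups overlapped. Nfe2l2 (Entrez gene 18024; GRCm38.p6 chromosome 2, 75675513 to 75704663), the factor itself, was at 66.6, 47.8 and 58.8 FPKM in WT replicates 1 to 3 and at 56.9, 75.5 and 45.3 FPKM in KO replicates 1 to 3. The groups overlapped across their range, with KO replicate 2 highest and KO replicate 3 lowest of all 6. The difference on the log2(FPKM + 1) scale was 0.02 (SE 0.21), and it changed sign with median-of-ratios scaling or when replicate 2 of either group was left out. Keap1 (50868; chromosome 9, 21229730 to 21239332), the adaptor that sends NRF2 to degradation, was at 16.0, 17.3 and 17.9 FPKM across WT replicates and 13.6, 11.8 and 10.2 FPKM across KO replicates. All KO libraries were below all WT libraries, at 69.6% of the WT mean, a log2 difference of −0.50 (SE 0.15). Keap1 was thus at 0.302 ± 0.0609 of Nfe2l2 in WT and at 0.207 ± 0.0442 in KO (SD, n = 3), and the nearest libraries of the groups were at 0.24 and 0.238.

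Osgin1 (71839; chromosome 8, 119425882 to 119446257) encodes oxidative stress-induced growth inhibitor 1 and had the largest log2 difference among the 10. It was at 3.0, 2.77 and 3.16 FPKM in the 3 WT libraries, against 0.68, 0.52 and 0.49 FPKM in the KO libraries. The KO mean was 18.9% of the WT mean, and the spread within each group was small beside the gap, with a coefficient of variation of 6.59% in WT and 18.1% in KO. The log2(FPKM + 1) difference was −1.35 (SE 0.14), and −2.22 with a pseudocount of 0.1, because the added 1 FPKM is larger than the KO level. A difference at least as low was found in 44 of the 13331 tested genes (0.33%). Osgin1 was chosen with its values known, so nothing is read from this share. By an estimate from its 2005 nt transcript, these levels rest on 79.8 to 89.8 reads per WT library and 13.9 to 17.6 reads per KO library. Osgin2, the related gene, was at 5.97 to 10.3 FPKM in WT and 6.57 to 9.29 FPKM in KO, so that the ratio of Osgin1 to Osgin2 was 0.29 to 0.529 in WT and 0.0527 to 0.0997 in KO.

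The neighbours of Osgin1 on the chromosome were looked up after its values were seen. Mlycd (malonyl-CoA decarboxylase), which ends 4044 bases before it, was at 24.6, 35.8 and 34.5 FPKM across WT replicates and 28.2, 25.2 and 32.02 FPKM across KO replicates, and the groups overlapped. Necab2, on the other side, did not exceed 0.11 FPKM in any library, too low to show a gap. The long noncoding gene Gm32006 overlaps Osgin1 in the annotation and was not analysed here. The sources used here do not say whether reads were counted by strand. Reads of overlapping genes then cannot be told apart.

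The genes whose levels followed Osgin1 most closely, by Pearson correlation of log2(FPKM + 1) over the 6 libraries among 12138 genes at a mean of 1 FPKM or more, were Mir7034 (r 0.999), Wdr90 (0.998), Cox11 (0.996), Dmrt2 (0.994) and Timm17a (0.991). In all 5 the KO values lay below the WT values. With 2 separate groups of 3, such an r describes that gap and little else. Cox11, a copper chaperone of cytochrome oxidase assembly, was at 23.6 to 23.95 FPKM in WT and 14.6 to 16.3 FPKM in KO. Timm17a, a subunit of the inner membrane import channel of mitochondria, was at 173.8 to 183.1 FPKM in WT and 123.6 to 127.6 FPKM in KO. Dmrt2, a transcription factor gene, was at 11.3 to 14.1 FPKM in WT and 4.81 to 5.62 FPKM in KO. Mir7034 is a microRNA gene, and as a very short feature its FPKM rests on few reads.

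The thioredoxin and sulfiredoxin enzymes among the 10 lay lower in all KO libraries than in WT. Txnrd1 (50493; chromosome 10, 82833951 to 82897724), the cytosolic thioredoxin reductase, was at 55.9, 39.2 and 37.7 FPKM in the 3 WT libraries, against 34.9, 26.99 and 29.6 FPKM in the KO libraries. The groups did not overlap, but WT replicate 1 stood well above the other WT libraries, and without it the log2 difference was −0.33 in place of −0.51 (SE 0.18). Srxn1 (76650; chromosome 2, 152105524 to 152111376), which restores overoxidized peroxiredoxins, was at 12.99, 13.01 and 11.9 FPKM across WT replicates and 9.65, 6.97 and 8.20 FPKM across KO replicates. The KO mean was 65.6% of the WT mean, a log2 difference of −0.56 (SE 0.15) with tight WT values. Eid3 lies within the Txnrd1 locus and was at most 0.55 FPKM in any library.

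The partners of these enzymes were read in the same libraries. Txn1, the substrate of Txnrd1, was at 88.6 to 102.7 FPKM in WT and 101.3 to 131.95 FPKM in KO. The ratio of Txnrd1 to Txn1 was 0.463 ± 0.0727 in WT and 0.273 ± 0.0611 in KO (SD, n = 3), without overlap. The ratio of Txnrd1 to Txnrd2, its mitochondrial relative, overlapped, at 1.12 to 2.59 in WT and 1.20 to 1.43 in KO. Prdx1, a substrate of Srxn1, was at 285.2 to 315.6 FPKM in WT and 237.04 to 258.5 FPKM in KO. The ratio of Srxn1 to Prdx1 was 0.0416 ± 0.00371 in WT and 0.033 ± 0.00402 in KO, and the nearest libraries of the groups were at 0.0382 and 0.0373.

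The glutathione arm was mixed. Gclc (14629; chromosome 9, 77754535 to 77794489), the catalytic subunit of glutamate-cysteine ligase, was at 30.01, 16.8 and 16.3 FPKM in the 3 WT libraries, against 21.8, 19.6 and 21.97 FPKM in the KO libraries. WT replicate 1 was the highest and the other WT libraries the lowest of the 6, so the means were nearly equal. The log2 difference was 0.06 (SE 0.22), was 0.33 without WT replicate 1 and turned negative without WT replicate 2 or 3. Gclm (14630; chromosome 3, 122245487 to 122267215), the modifier subunit, was at 33.1, 26.4 and 27.02 FPKM across WT replicates and 25.7, 19.3 and 23.99 FPKM across KO replicates. All KO values were below all WT values, the nearest libraries being 25.7 and 26.4 FPKM, and the log2 difference was −0.32 (SE 0.16). Leaving out WT replicate 1 gave −0.21, and leaving out KO replicate 2 gave −0.20. The ratio of Gclc to Gclm overlapped between the groups, at 0.604 to 0.906 in WT and 0.845 to 1.01 in KO.

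Slc7a11 (26570; chromosome 3, 50364936 to 50499087), the cystine carrier of system xc-, was at 1.17, 0.29 and 0.51 FPKM in the 3 WT libraries, against 0.44, 0.44 and 0.67 FPKM in the KO libraries. WT replicate 1 was again the highest library and WT replicate 2 the lowest, and the KO values lay between them. The log2 difference was −0.10 (SE 0.20) and became 0.12 without WT replicate 1. Its heavy-chain partner Slc3a2, which also serves other carriers, was at 63.6 to 108.5 FPKM in WT and 72.04 to 137.1 FPKM in KO. The ratio of Slc7a11 to Slc3a2 overlapped, at 0.00412 to 0.0184 in WT and 0.00489 to 0.00611 in KO.

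WT replicate 1 was the highest WT library in 5 of the 10 genes (Nfe2l2, Gclc, Gclm, Txnrd1 and Slc7a11). In KO, replicate 2 was the lowest library in Hmox1, Gclc, Gclm, Txnrd1 and Srxn1. Of the WT libraries, replicate 1 had the lowest sum over each of the 6 marker lists (brown adipocyte, muscle, macrophage, erythroid, endothelial and epidermal) and the lowest FPKM sum over all genes (486449, against 518994 and 556968). The part of cell makeup or of this scaling in these values was not tested.

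**Figure D2:**
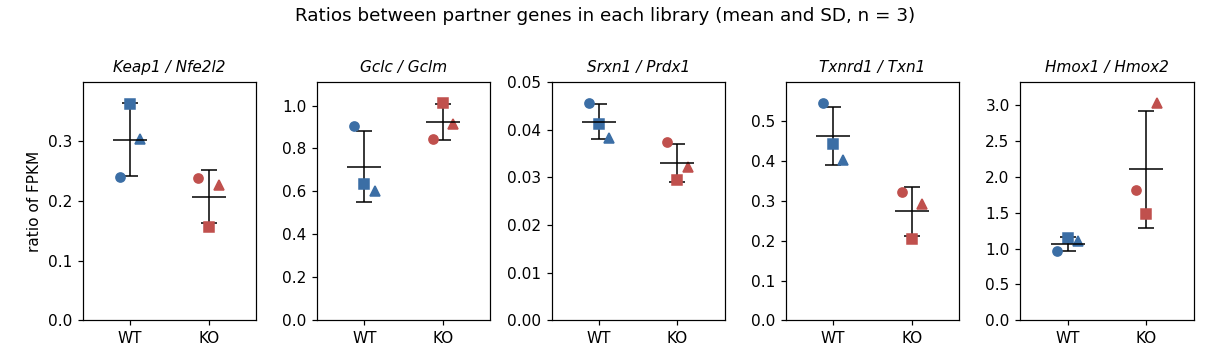
Ratio of FPKM between each of 5 genes and its partner or relative in the 3 WT (blue) and 3 KO (red) libraries, with the mean (long bar) and SD (whiskers). Txnrd1 to Txn1 is 0.403 to 0.544 in WT and 0.205 to 0.322 in KO, Hmox1 to Hmox2 is higher in all KO libraries, and Gclc to Gclm overlaps.

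The haem and quinone enzymes of the chosen gene set, Hmox1 and Nqo1, did not follow Osgin1. Hmox1 (15368; chromosome 8, 75093618 to 75100593), the inducible haem oxygenase, was at 55.4, 76.3 and 76.2 FPKM across WT replicates and 93.2, 60.4 and 104.7 FPKM across KO replicates. KO replicates 1 and 3 were above all WT libraries and KO replicate 2 was below 2 of them, so the groups overlapped. The log2 difference was 0.29 (SE 0.22), with 0.13 when KO replicate 3 was left out and 0.52 when KO replicate 2 was. Hmox2, the constitutive form, lay lower in all KO libraries, at 57.8 to 69.5 FPKM in WT and 34.6 to 51.4 FPKM in KO. The ratio of Hmox1 to Hmox2 was 0.959 to 1.14 in WT and 1.48 to 3.02 in KO, without overlap.

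Macrophages are a known source of Hmox1, and their markers were also higher on average in KO. The difference was positive in 10 of 10 macrophage markers, with a median of 0.41. KO lay above WT without overlap in 5 of the 10, against 13.6% of all tested genes. Of the 10 markers 0 passed an adjusted p of 0.05 in limma. An unadjusted limma p under 0.05 was found in 5 of the 10 markers (19.2% of all tested genes). Their summed level was 139.8 to 207.1 FPKM in WT and 196.9 to 271.2 FPKM in KO, and none was at 0. KO replicate 2 had the highest macrophage sum and the lowest Hmox1 of the KO libraries. Erythroid sums were 3385 to 14400 FPKM in WT and 3076 to 3968 FPKM in KO, with Hbb-bh1 at or near 0 throughout. The part of either cell type in the Hmox1 values was not tested. In bulk tissue a change in cell number and a change in RNA per cell cannot be told apart.

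Nqo1 (18104; chromosome 8, 107388225 to 107403205), the quinone reductase often used to read NRF2 activity, was at a low level in every library. It was at 0.51, 0.58 and 0.81 FPKM in the 3 WT libraries, against 0.58, 0.62 and 1.03 FPKM in the KO libraries, an estimated 11.2 to 22.6 reads per library. The groups overlapped. The log2 difference was 0.09 (SE 0.16) and changed sign without KO replicate 3.

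**Figure D3:**
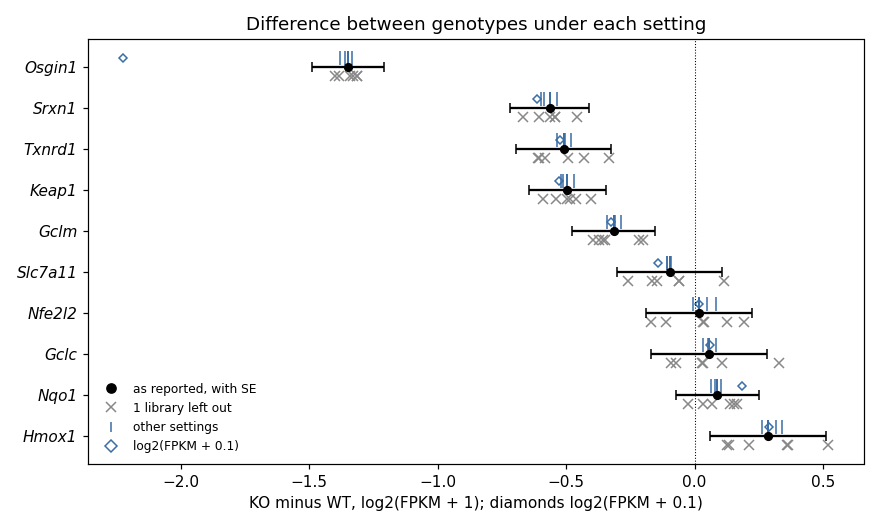
Difference between KO and WT for each gene on the log2(FPKM + 1) scale (black, with SE), with 1 library left out (grey crosses) and under the other settings (blue). Osgin1 stays between −1.40 and −1.31 on this scale and is at −2.22 with a pseudocount of 0.1 (diamond). Keap1, Gclm, Txnrd1 and Srxn1 stay below 0 and Hmox1 above it, while Nfe2l2, Gclc, Nqo1 and Slc7a11 fall on both sides of 0. Osgin1, Nqo1 and Slc7a11 have no value with the filter at 5 FPKM.

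The rest of the pathway was read from 8 lists of 105 genes, of which 103 were in the table and 95 were tested. In these genes 1 of 95 passed an adjusted p of 0.05 in limma (1.05%, against 295 genes or 2.21% of all tested, 1.21% being called higher in KO), with 20 at an unadjusted p under 0.05 (21.1%, against 19.2% of all tested genes). KO lay below WT without overlap in 11 (11.6%) and above in 13 (13.7%), beside the 11.4% and 13.6% of all tested genes. The median difference was 0.002. The differences were 47 negative and 48 positive.

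The gene that passed was Sesn1, which encodes sestrin 1, a stress-induced protein that acts on peroxiredoxin recycling and on mTORC1. It rose from 10.5, 10.4 and 8.32 FPKM in WT to 18.6, 18.5 and 30.03 FPKM in KO, a log2 difference of 1.09 (SE 0.21, limma adjusted p 0.0391). All KO libraries were above all WT libraries. It did not pass when any 1 of the 6 libraries was left out, with the replicate block, with a common sum or without the filter. Sestrin 2, from Sesn2, overlapped, at 11.2 to 16.3 FPKM in WT and 12.0 to 44.8 FPKM in KO. Sesn3 lay above WT in all KO libraries, at 1.84 to 2.66 FPKM in WT and 2.68 to 3.69 FPKM in KO (limma adjusted p 0.259).

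Among NRF2 relatives and small Maf factors, 0 of 7 tested genes passed in limma, with 2 at an unadjusted p under 0.05, and 4 lay above WT in all KO libraries (Bach1, Bach2, Mafg and Mafk; 57.1%, against 13.6% of all tested genes). Bach1, a repressor that competes with NRF2 at antioxidant response elements and is released by haem, was at 7.23, 6.39 and 4.47 FPKM across WT replicates and 8.54, 8.88 and 8.77 FPKM across KO replicates (log2 difference 0.49, SE 0.18, limma adjusted p 0.182). Nfe2l1, the close relative of NRF2, overlapped at 68.4 to 88.05 FPKM in WT and 69.3 to 93.1 FPKM in KO. Among 8 genes of KEAP1 and NRF2 turnover 0 passed, with 1 at an unadjusted p under 0.05. That gene, Sqstm1 (p62), whose protein binds KEAP1 and carries it to autophagy, was at 81.1, 71.6 and 94.1 FPKM in the 3 WT libraries, against 141.6, 113.3 and 212.3 FPKM in the KO libraries (log2 difference 0.87, SE 0.23, limma adjusted p 0.0843). Its KO values were above all WT values, with KO replicate 3 the highest.

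Of 27 tested glutathione genes 0 passed in limma, with 4 at an unadjusted p under 0.05, and the median difference was 0.003. Gstt2, a glutathione transferase, had the largest log2 difference (1.22, SE 0.35, limma adjusted p 0.106). It went from 2.97, 4.09 and 3.33 FPKM in WT to 6.62, 6.33 and 18.8 FPKM in KO, and KO replicate 3 stood far above the rest. Gstt2 alone lay above WT without overlap (3.7%, against 13.6% of all tested genes), and 2 lay below (7.41%, against 11.4%). These 2 were Glrx (−0.79, SE 0.17, limma adjusted p 0.055) and Gpx8 (−0.77, SE 0.18, limma adjusted p 0.0625). Of 4 superoxide dismutase and catalase genes 0 passed, with 3 at an unadjusted p under 0.05. These 3 did not share a direction. Catalase (Cat) was at 376.97 to 457.1 FPKM across WT replicates and 601.6, 463.5 and 1275 FPKM across KO replicates (0.74, SE 0.32, limma adjusted p 0.255), and KO replicate 3 was again the highest. Sod2 lay below WT in all KO libraries (−0.40, SE 0.13, limma adjusted p 0.162). Sod3 was lower on average in KO, but its groups overlapped (−0.72, SE 0.25, limma adjusted p 0.174). Glutathione transferases are a family of similar sequences, and the counting of shared reads is not given in the sources used here.

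In the NADPH supply list 0 of 8 genes passed in limma, 2 had an unadjusted p under 0.05, and 7 had a negative difference, with a median of −0.30. G6pdx, the first enzyme of the pentose phosphate path, was at 27.3, 41.3 and 40.5 FPKM in the 3 WT libraries, against 27.3, 15.7 and 18.6 FPKM in the KO libraries (−0.81, SE 0.23, limma adjusted p 0.108), and its nearest libraries, WT replicate 1 and KO replicate 1, stood at 27.30 and 27.26 FPKM. Of 10 other haem and iron genes 0 passed, with 2 at an unadjusted p under 0.05. Alas1, which starts haem synthesis, was at 96.8, 129.3 and 94.4 FPKM across WT replicates and 78.9, 51.3 and 70.8 FPKM across KO replicates (−0.67, SE 0.20, limma adjusted p 0.115). Of 17 phase II and export genes 0 passed, with 3 at an unadjusted p under 0.05. Ugdh, which makes UDP-glucuronate, was at 30.3, 34.6 and 21.8 FPKM in the 3 WT libraries, against 48.2, 44.2 and 50.95 FPKM in the KO libraries (0.73, SE 0.18, limma adjusted p 0.0756).

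**Figure D4:**
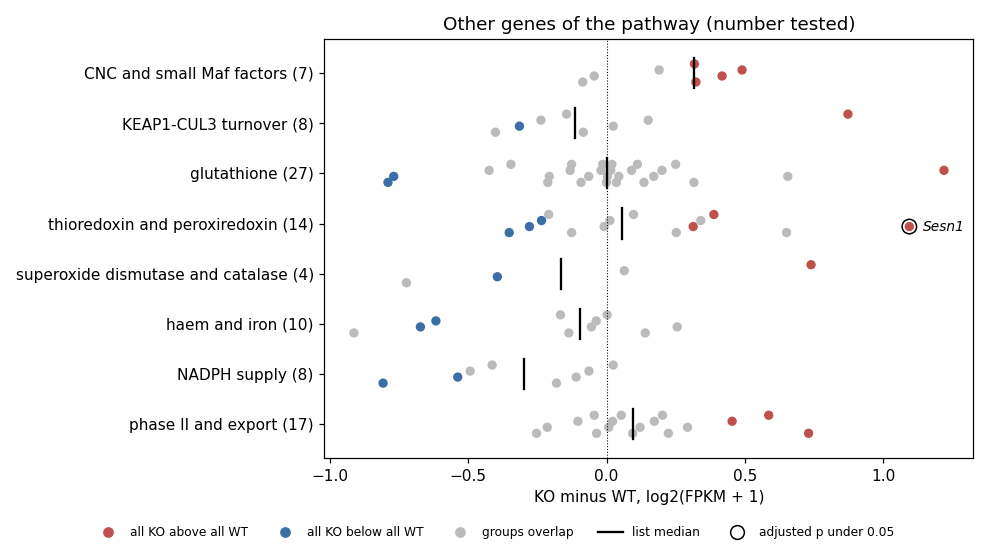
Difference between KO and WT on the log2(FPKM + 1) scale for the 95 other tested genes of the pathway, by list; red and blue points have groups that do not overlap, grey points overlap, the vertical bar is the list's median and the ring marks an adjusted p under 0.05. Sesn1 is the ringed gene, and points lie on both sides of 0 in all 8 lists.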

How the data were processed

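RNA of the depot was sequenced in 6 libraries (3 WT, 3 KO, grouped and numbered by title). The labels name total RNA, and nothing says that libraries came from separate animals, so p-values measure the spread between these libraries. The authors deposited FPKM, per the file headers, rounded to 2 decimals. The submitters' processing notes name mm10, HISAT2 2.0.4, Bowtie2 2.2.5 and DESeq2, without roles. The strand setting, annotation and read depth are not given in the sources used here.

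Values were transformed as log2(FPKM + 1), and the 13331 genes whose mean reached 0.5 FPKM were fitted with limma 3.58.1 in R 4.3.3 (eBayes with trend, no covariates, Benjamini-Hochberg adjustment over all tested genes, threshold 0.05). The fit was tested on simulated data. The added 1 FPKM understates changes of low genes. No count model was used.

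Depth was estimated from the steps of low values in genes with 1 transcript of 500 to 1300 nt. It came to 12900000 to 14900000 reads per library, with 79.0% to 82.9% of 474 to 504 values within 0.2 of a whole read. The depth and a length offset (0 to 50 nt) were chosen for each library to make this share largest. The share is therefore no check of the estimate. FPKM summed to 486449 to 556968 per library. Read numbers are approximate.

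The 10 genes, the pathway lists, the marker lists and the tests were chosen with earlier results of these data known. Genes named outside the 10 include those past the threshold and the gene with the largest log2 difference without overlap in each list. Partners and relatives of the 10 were chosen after their values were seen, as were the other sestrins and further genes of the lists. Also named are markers, genes beside or overlapping the 10 on the chromosome, genes called under an alternative and the 5 genes most like Osgin1. Entrez identifiers were matched to RefSeq positions and promoter windows of GRCm38.p6. The 15 alternatives were another pseudocount, other filters, other scalings, other spread models, the replicate block and leaving out each library.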

Additional observations from a re-analysis of the deposited data

How the results depend on the processing

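The 295 genes called over the table became 35 without the filter on low values, 191 with FPKM rescaled to a common sum, 167 with the replicate block and 31 to 370 with 1 library left out, the fewest when WT replicate 3 and the most when WT replicate 1 was dropped. Leaving out a library also leaves fewer samples; otherwise the cause was not tested. The other 6 settings gave 285 to 372. The 1 pathway gene called became 3 with the filter at 5 FPKM and with median-of-ratios scaling (Glrx and Gpx8, both lower in KO, joined Sesn1), 2 with robust eBayes, and 0 in limma without the filter (18 at an unadjusted p under 0.05), with a common sum (20), with the replicate block (20) and with any library left out (range 0 to 0, with 13 to 29 unadjusted). Same-numbered WT and KO libraries deviated together at correlations of 0.0681, 0.0433 and 0.0433. Libraries with different numbers were lower, at −0.0781 to 0.0292. All of these correlations are small, and same-numbered libraries were not treated as pairs outside the replicate block. Estimated read numbers were low for Nqo1 (11.2 to 22.6 reads per library) and for Osgin1 in KO (13.9 to 17.6), which limits the precision of both.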
